A study of Homo sapiens with 6 samples.

Results

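The proteins of the large ribosomal subunit were followed at the level of their ribosome footprints in WPMY-1 cells, a human stromal line of myofibroblast type that was immortalised from prostate tissue. The set holds 45 genes, RPL3 to RPL41 and the stalk proteins RPLP0, RPLP1 and RPLP2, taken from the 62492 features of the deposited count table by Ensembl ID. RPL36A, which also encodes a large subunit protein, is not in the set. All 45 IDs were found, each once. Footprints were counted in 3 libraries of cells with a control hairpin, labelled TRMT61A wildtype, and in 3 libraries of cells with a hairpin against TRMT61A, labelled TRMT61A knockdown. TRMT61A is the catalytic subunit of the enzyme that places 1-methyladenosine in tRNA, and the study asked how its loss bears on translation. All 6 libraries come from 1 cell line, the labels do not say how many hairpins were used or whether the libraries of a group are separate cultures, so the p-values below rest on a spread between libraries that may be technical only.

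The large subunit carries the peptidyl transferase centre, which joins amino acids, the tunnel through which the new chain leaves, and a flexible stalk that recruits elongation factors. Its proteins are made in matched amounts, assembled onto ribosomal RNA in the nucleolus and degraded when left unassembled. Most of their mRNAs begin with a C followed by a run of pyrimidines, the 5' terminal oligopyrimidine (TOP) start, through which growth signals control their translation together. Many of the genes also carry small nucleolar RNAs (snoRNAs) in their introns.

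The start-site windows of 10 members are shown because they give the feature that most members share and because they include RPL3 and RPL19, the pair with the smallest p-values of the set. They come from RefSeq (build GRCh38.p14). Each holds 10 bases before the listed start and 20 bases from it, read 5' to 3' on the strand of the gene. RPL19 and RPL11 have 2 listed starts each. For these, a TOP start was preferred, and then the start with the longest run of C and T. Capitals mark the unbroken run of C and T that begins at the listed start.
RPL3 (chr22:39319604-39319633, minus strand): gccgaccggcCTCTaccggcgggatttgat
RPL19 (chr17:39200313-39200342, plus strand): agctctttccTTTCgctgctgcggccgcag
RPL4 (chr15:66504836-66504865, minus strand): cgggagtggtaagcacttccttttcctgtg
RPL27 (chr17:42998409-42998438, plus strand): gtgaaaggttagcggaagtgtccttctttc
RPL35A (chr3:197950180-197950209, plus strand): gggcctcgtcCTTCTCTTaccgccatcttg
RPLP0 (chr12:120201092-120201121, minus strand): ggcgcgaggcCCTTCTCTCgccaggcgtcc
RPLP1 (chr15:69452808-69452837, plus strand): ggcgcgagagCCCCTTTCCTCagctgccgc
RPLP2 (chr11:809957-809986, plus strand): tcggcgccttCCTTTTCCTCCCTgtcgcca
RPL12 (chr9:127451387-127451416, minus strand): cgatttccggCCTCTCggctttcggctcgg
RPL11 (chr1:23691796-23691825, plus strand): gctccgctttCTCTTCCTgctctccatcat
A start was listed for 37 of the 45 members. A TOP start, searched on the strand of the gene as C at the listed start followed by 4 bases that are each C or T, was found for at least 1 start of 27 of the 37 members (73.0%). The same search found it for 1404 of 27305 genes in the table (5.14%). With the run allowed to begin anywhere in the window of 10 bases before to 20 bases from the start, 35 of 37 members (94.6%) and 43.4% of all genes held it. RPL3 and RPL19 were among the 10 members without a TOP start at the listed base. The run at the RPL3 start stops after 4 bases, and the run at the RPL19 start continues upstream of the listed base. A listed start can lie some bases away from the one in use in these cells.

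The libraries held 6771455 to 8008896 counts in the control group and 12704354 to 17752247 in the knockdown group. The level of TRMT61A and of stromal marker genes was not analysed here, for want of a table that names the IDs. The symbols of the 45 members came with the set. Footprint counts reflect both the amount of an mRNA and how densely ribosomes sit on it, and these were not separated here. Each library pools many cells, so fewer cells with a message and less of it per cell cannot be told apart.

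Footprints on the large subunit proteins lay on both sides of no change, close to it for most members. Of the 44 members with enough counts to be tested, RPL3 fell in the knockdown and no member rose (edgeR quasi-likelihood test, Benjamini-Hochberg adjusted p under 0.05 over all 11653 tested features). That is 2.27% of the tested members, beside 3.12% of all tested features, of which 1.64% were lower and 1.48% higher in the knockdown. Log2 fold changes of knockdown over control were above 0 for 20 members and below 0 for 24. Their median was -0.022, against -0.0047 over all tested features. The central 50% of the members lay between -0.24 and 0.15, and the central 50% of all tested features between -0.51 and 0.50. By abundance, 31 of the 44 members fell among the 20% of tested features with the highest mean CPM, where the central 50% of all features lay between -0.36 and 0.40 and that of the 31 members between -0.19 and 0.15. Among these abundant features, 8.71% of all features and 1 of the 31 members passed the test.

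At an unadjusted p under 0.05 there were 5 members (11.4%), 2 lower and 3 higher, beside 16.3% of all tested features, 8.38% lower and 7.95% higher. The 3 control libraries and the 3 knockdown libraries did not overlap for 7 members (15.9%), beside 24.8% of all tested features. RPL3, RPL19 and RPL27A were the 3 that lay lower (12.7% of all features), and RPL8, RPL13, RPL17 and RPL37 the 4 that lay higher (12.2% of all features). These shares of members were at or under the background in each case. The 95% interval of the log2 fold change lay wholly between -1 and 1, that is within a 2-fold change either way, for 27 of the 44 members (61.4%) and for 18.2% of all tested features. For those 27 members a 2-fold change lay outside the interval, and for the other 17 the data allow one. The median standard error was 0.26 for members, 0.26 among the 20% most abundant features and 0.49 over all tested features. The shares of intervals thus compare features of unlike precision, and the share among abundant features alone was not computed.

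**Figure D1:**
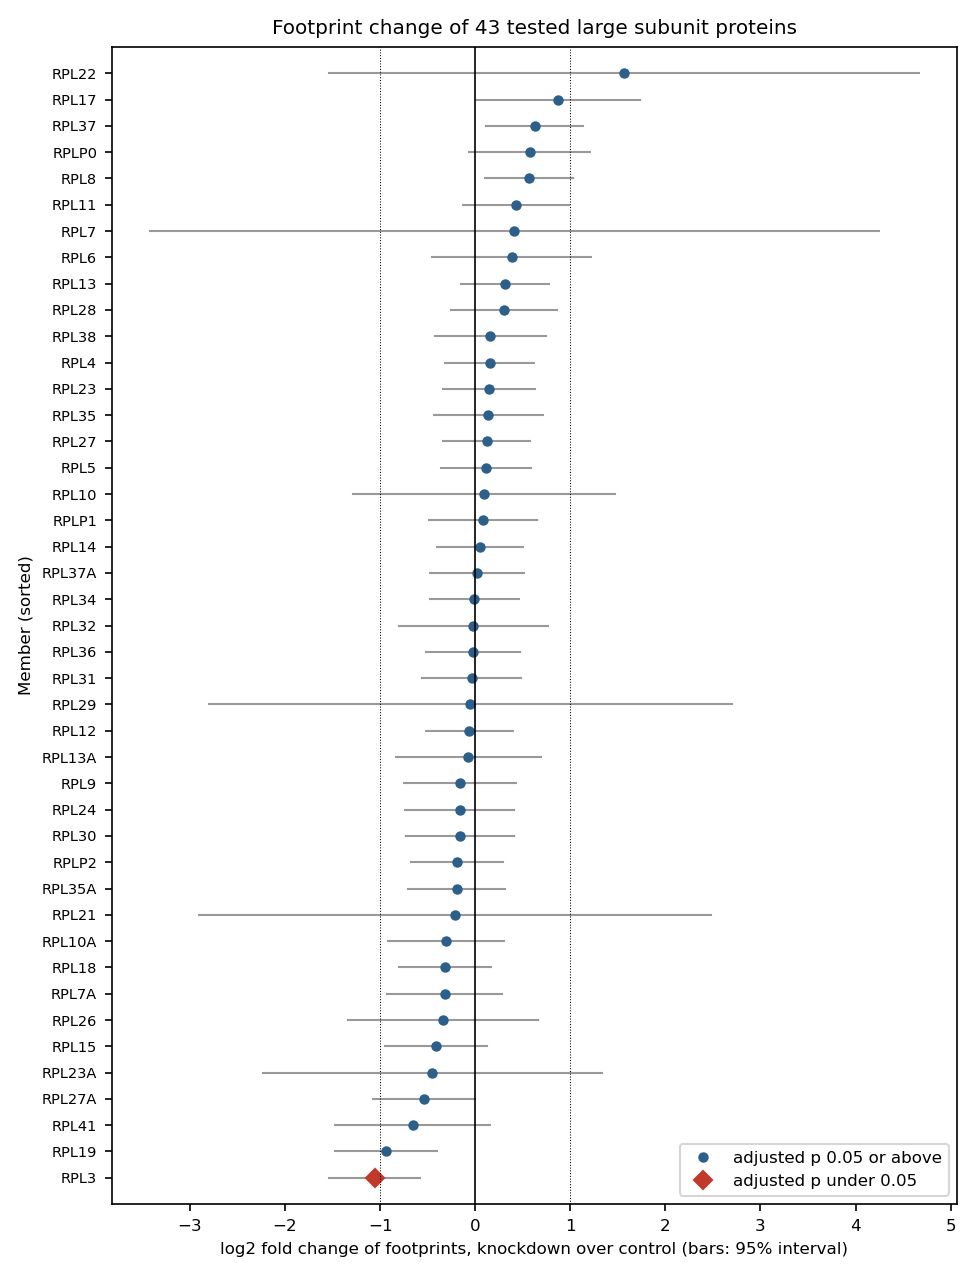
Log2 fold change of footprints (knockdown over control) for 43 of the 44 tested members, sorted, with its 95% interval as a bar. Dotted lines stand at -1 and 1, a 2-fold change. RPL3, the red diamond at -1.06, is the 1 member past the adjusted threshold, and the members with the widest bars are those with fewest counts.

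The share of each library's counts that fell on the 45 members was 0.814%, 0.849% and 0.837% in control libraries 1 to 3 and 0.684%, 0.683% and 0.751% in knockdown libraries 1 to 3. The means were 0.834% ± 0.018 and 0.706% ± 0.039 (SD, n = 3 each), and the groups did not overlap. The 50 features with the largest summed counts, 2 of them members, took 64.8% ± 5.2 of the control and 71.6% ± 1.7 of the knockdown counts. With all 45 members kept and the other 48 of these features left out of the total, a setting added after seeing the data, the members' share was 2.39% ± 0.33 in control libraries and 2.47% ± 0.042 in knockdown libraries (SD, n = 3 each). The groups then overlapped, since control library 1 stood at 2.76%, above every knockdown library. With all 50 features left out, RPL35A and RPLP2 among them, the other 43 members held 1.81% ± 0.24 and 1.96% ± 0.048, and the groups overlapped as well.

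**Figure D2:**
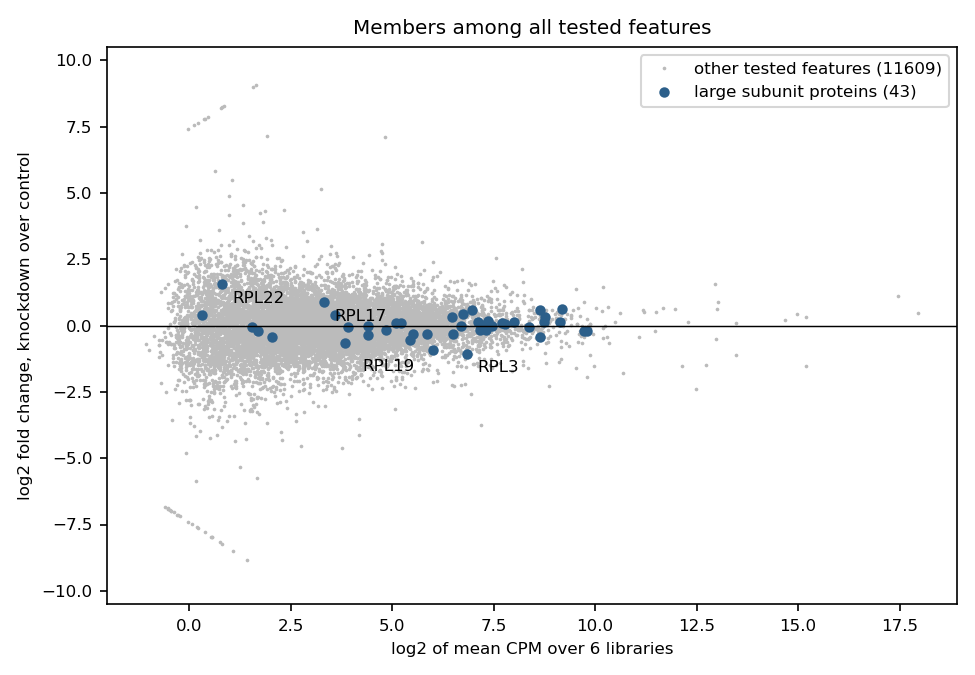
Log2 fold change (knockdown over control) of every tested feature against the log2 of its mean CPM over the 6 libraries, with 43 of the 44 tested members as blue points and the other 11609 features in grey. Most members lie at the right, where the cloud is narrow, and close to 0. RPL3 and RPL19 lie below the other members of like abundance.

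Among the proteins near the peptidyl transferase centre, RPL3 fell and RPL8 and RPL10 did not pass the test. RPL3 (ENSG00000100316.16_7) is a core protein that binds ribosomal RNA early in assembly and reaches towards the catalytic centre. Its footprints stood at 136, 182 and 151 CPM (counts scaled to library size with TMM factors) in control libraries 1 to 3 and at 72.8, 70.7 and 81.7 CPM in knockdown libraries 1 to 3. Each knockdown library lay below each control library, with the lowest control value at 136 CPM and the highest knockdown value at 81.7 CPM. The group means were 156 ± 23 and 75.1 ± 5.9 CPM (SD, n = 3 each). On the log2 scale the change was -1.06 ± 0.22 (SE), or 0.480 of the control level with a 95% interval of 0.345 to 0.669. The adjusted p was 0.0241 (edgeR quasi-likelihood test). The raw counts were 1003, 1483 and 1334 in control and 1107, 834 and 1009 in knockdown, although the knockdown libraries were deeper.

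Over 17 alternatives the log2 fold change of RPL3 ran from -1.36 to -0.94, and 11 of the 17 kept the call. It was lost with the replicate number as a block (adjusted p = 0.0585 in edgeR). Leaving out control library 2 (0.131) or 3 (0.0863), or any of knockdown libraries 1 (0.0824), 2 (0.111) and 3 (0.0671), ended it too. Set against the other members of the same library, which needs no scaling, RPL3 took 1.54%, 2.58% and 2.17% of all member counts in control libraries 1 to 3 and 0.912%, 0.919% and 1.06% in knockdown libraries 1 to 3. The groups did not overlap on this measure either. The RPL3 gene span holds 4 snoRNA genes in RefSeq, SNORD43, SNORD83A, SNORD83B and SNORD139. Counts per gene ID do not show which reads came from exons, and the part of snoRNA reads in the RPL3 difference was not tested.

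RPL8 (ENSG00000161016.17_7), a core protein beside the catalytic centre, stood at 369, 329 and 276 CPM in control and 500, 464 and 479 CPM in knockdown. All knockdown libraries lay above all control libraries. The log2 difference was 0.57 ± 0.21 (SE), at an unadjusted p of 0.0207 and adjusted p = 0.194 in edgeR. It passed in DESeq2 (adjusted p = 0.0310) and in none of the other 16 alternatives. RPL10 (ENSG00000147403.16_7), which joins the subunit late in the cytoplasm and is needed for its activation, showed 1 library apart. It stood at 3.39, 54.7 and 50.9 CPM in control libraries 1 to 3 and at 40.2, 42.2 and 33.9 CPM in knockdown. Control library 1 gave 25 counts where the other 5 libraries gave 418 to 612. With that library the log2 fold change was 0.091 ± 0.631 (SE), and without it -0.45, with adjusted p = 0.972 and 0.472 in edgeR. The sign also turned with control library 1 kept, to -0.31 with library size alone and to -0.051 with each library scaled to the 45 members. RPL10 was described after its values had been seen.

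The tunnel wall and the rim around its exit are formed by 8 members, of which 7 were tested, 3 with log2 fold changes above 0 and 4 below, and none passed the adjusted threshold. RPL19 (ENSG00000108298.11_6), at the rim and in a contact with the small subunit, came nearest. It stood at 91.8, 77.0 and 84.5 CPM in control and at 49.0, 50.8 and 32.3 CPM in knockdown. The groups did not overlap, with means of 84.4 ± 7.4 and 44.1 ± 10.2 CPM (SD, n = 3 each). The log2 fold change was -0.94 ± 0.25 (SE) and the adjusted p was 0.0634 in edgeR. Of 17 alternatives 5 called it, DESeq2, limma voom, library size alone, no filter on low counts and a filter at 10 CPM, and the values ran from -1.23 to -0.75. RPL19 took 1.04%, 1.09% and 1.21% of all member counts in control and 0.613%, 0.661% and 0.418% in knockdown, so that its groups did not overlap within the set either. No snoRNA gene lies in the RPL19 span in RefSeq.

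RPL17 (ENSG00000265681.7_8), which lines the tunnel, went the other way at low counts. It had 53, 55 and 64 counts in control and 232, 145 and 140 in knockdown, or 7.19, 6.74 and 7.26 CPM against 15.3, 12.3 and 11.3 CPM. The groups did not overlap. The log2 fold change was 0.88 ± 0.40 (SE), with adjusted p = 0.296 in edgeR, and no alternative called it. RPL4, whose long loop reaches into the tunnel, stood at 136, 134 and 124 CPM in control and 131, 169 and 137 CPM in knockdown, with a log2 fold change of 0.15 and a 95% interval of -0.31 to 0.61. RPL35, at the exit, ranged from 379 to 727 CPM in control and from 521 to 676 CPM in knockdown, with a log2 fold change of 0.14 ± 0.26 (SE) that turned to -0.10 with library size alone and to -0.062 without control library 2. RPL31 had a log2 fold change of -0.038 (95% interval -0.56 to 0.48) and RPL26 of -0.34 (-1.34 to 0.66). RPL23A, a docking site for factors that meet the emerging chain, and RPL39, a very short protein of the tunnel wall, had too few counts for a reading and are given with the other sparse members.

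The P stalk, which recruits the elongation factors to the ribosome, was read through all 4 of its members. None passed the test, and 2 had log2 fold changes above 0 and 2 below. RPLP0 (ENSG00000089157.16_7), the scaffold that joins the stalk to the ribosome, stood at 125, 75.2 and 101 CPM in control and at 100, 144 and 205 CPM in knockdown. Knockdown library 3 was the highest and knockdown library 1 lay within the control range. The log2 fold change was 0.57 ± 0.29 (SE) with adjusted p = 0.364 in edgeR, and it ran from 0.29 to 0.80 over the alternatives. RPLP1 stood at 38.8, 26.5 and 35.2 CPM in control and 40.4, 31.8 and 34.1 CPM in knockdown, and its groups overlapped almost wholly. Its partner RPLP2 stood at 1065, 855 and 806 CPM in control and 836, 695 and 856 CPM in knockdown. RPL12, at the stalk base, was the most even of the 4, at 377, 345 and 296 CPM in control and 338, 317 and 320 CPM in knockdown. The log2 fold changes of RPLP1, RPLP2 and RPL12 were 0.082, -0.19 and -0.062, with 95% intervals of -0.48 to 0.65, -0.68 to 0.29 and -0.52 to 0.39. A 2-fold change lay outside all 3 intervals. The sign for RPLP1 turned with library size alone (-0.20), without control library 2 (-0.064) and without knockdown library 1 (-0.022), and that for RPL12 without control library 1 (0.017).

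RPL5 and RPL11 bind the 5S ribosomal RNA and, when left free of the ribosome, bind MDM2 and so stabilise p53. RPL5 stood at 232, 191 and 180 CPM in control and 234, 230 and 190 CPM in knockdown. Its log2 fold change was 0.11 (95% interval -0.36 to 0.59), and -0.17 with library size alone. RPL11 stood at 97.5, 112 and 62.9 CPM in control and 124, 139 and 104 CPM in knockdown. Only the highest control and the lowest knockdown library of RPL11 overlapped. Its log2 fold change was 0.43 ± 0.26 (SE), with adjusted p = 0.469 in edgeR and a 95% interval of -0.13 to 0.99.

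RPL10A forms the L1 stalk, which follows the spent tRNA out of the ribosome. It stood at 62.6, 52.0 and 37.4 CPM in control and 53.0, 32.6 and 37.3 CPM in knockdown, with a log2 fold change of -0.31 (95% interval -0.92 to 0.31). The bridges to the small subunit were read through RPL24 and RPL41. RPL24 had a log2 fold change of -0.16 (95% interval -0.73 to 0.41). RPL41, a very short peptide at the interface, stood at 20.9, 12.5 and 19.5 CPM in control and 11.4, 7.97 and 14.1 CPM in knockdown. Its groups overlapped, and its log2 fold change was -0.66 ± 0.37 (SE) with adjusted p = 0.438 in edgeR.

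**Figure D3:**
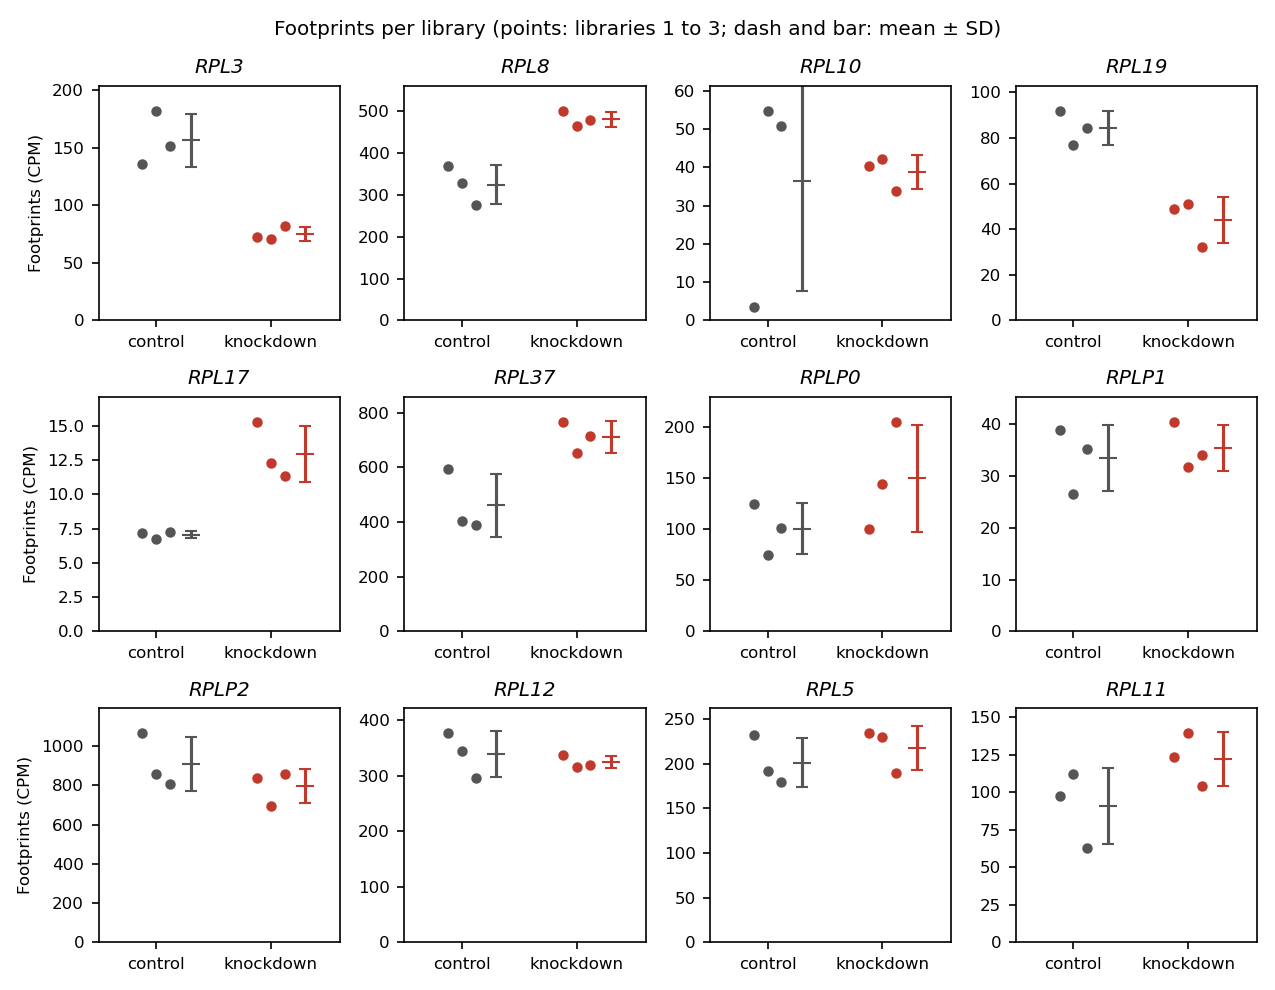
Footprints in CPM (TMM-scaled, axes from 0) in each of the 6 libraries for 12 members, with control in grey, knockdown in red, points for libraries 1 to 3 from left to right, and the mean ± SD beside them. RPL3 and RPL19 are lower and RPL8, RPL17 and RPL37 higher in every knockdown library than in every control library, and control library 1 stands apart for RPL10 at 3.39 CPM.

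The other 25 members are core and outer proteins of the subunit, 11 with log2 fold changes above 0 and 14 below. The smallest adjusted p among them was 0.198 in edgeR, that of RPL37, a zinc-binding protein of the subunit core. RPL37 stood at 593, 402 and 389 CPM in control and 766, 651 and 716 CPM in knockdown, and its groups did not overlap. Its log2 fold change was 0.62 ± 0.24 (SE), and 1 of 17 alternatives, DESeq2, called it (adjusted p = 0.0355). RPL13 was also higher in every knockdown library, at 84.1, 77.5 and 75.8 CPM in control and 111, 96.9 and 87.6 CPM in knockdown. Its log2 fold change was 0.32 ± 0.21 (SE), with a 95% interval of -0.15 to 0.78 and adjusted p = 0.543 in edgeR. RPL27A was lower in every knockdown library, at 62.2, 49.2 and 43.2 CPM in control and 31.3, 38.2 and 37.0 CPM in knockdown, a log2 fold change of -0.54 ± 0.25 (SE) with adjusted p = 0.308 in edgeR. RPL28 had a log2 fold change of 0.30 ± 0.26 (SE), with groups that overlapped, since control library 1 reached 482 CPM and knockdown library 3 stood at 394 CPM. RPL35A, with RPLP2 1 of the 2 members among the 50 features with the largest counts, stood at 1168, 745 and 960 CPM in control and 776, 916 and 822 CPM in knockdown. Its groups overlapped wholly, with a log2 fold change of -0.19 and a 95% interval of -0.70 to 0.32. RPL14 (0.053), RPL37A (0.017), RPL34 (-0.010), RPL32 (-0.018), RPL36 (-0.025), RPL29 (-0.052) and RPL13A (-0.072) had the log2 fold changes nearest to 0 among these 25 members. The value of RPL29 rests on few counts, with a standard error of 1.26, and does not show that it was unchanged. RPL23 (0.15), RPL27 (0.12), RPL38 (0.16) and RPL6 (0.38) lay above 0 with intervals that held 0. RPL9 (-0.16), RPL30 (-0.16), RPL18 (-0.32), RPL7A (-0.32) and RPL15 (-0.41) lay below 0 with intervals that held 0.

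A group of 7 members never reached 100 counts in a library, and the standard errors of the 6 that were tested ran from 0.82 to 1.76 on the log2 scale. RPL22, which also binds viral and cellular RNAs outside the ribosome, had 0, 18 and 4 counts in control and 33, 27 and 43 in knockdown, a log2 fold change of 1.56 ± 1.42 (SE) with adjusted p = 0.684 in edgeR. RPL21 had 37, 20 and 27 counts in control and 0, 68 and 41 in knockdown, a log2 fold change of -0.22 ± 1.24 (SE) with adjusted p = 0.965 in edgeR. RPL29 had 25, 23 and 24 counts in control and 0, 56 and 48 in knockdown, a log2 fold change of -0.052 ± 1.26 (SE) with adjusted p = 0.994 in edgeR. Both were thus at 0 in knockdown library 1, the deepest of all, and above every control library in raw counts in knockdown library 2. Their log2 fold changes depended on the method, at -2.32 (RPL21) and -2.18 (RPL29) with limma voom. With the replicate block they were -0.88 and -0.84. RPL23A had 17, 37 and 65 counts in control and 93, 37 and 14 in knockdown, a log2 fold change of -0.45 ± 0.82 (SE) with adjusted p = 0.870 in edgeR. RPL7 had 14, 11 and 0 counts in control and 41, 19 and 0 in knockdown, a log2 fold change of 0.41 ± 1.76 (SE) with adjusted p = 0.954 in edgeR. RPL39 was not tested, with 0 counts in 5 libraries and 5 counts in knockdown library 2. From counting error alone, a library at 0 could hold up to 3 counts, which is 0.169 to 0.443 CPM across the 6 libraries.

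RefSeq lists up to 137 pseudogenes named after each of these 7 members, with a median of 40. The other 38 members have 5 to 80, with a median of 13. The ranges overlap, since RPL22 has 22 and RPL29 has 34, while RPL7A has 80 and RPL31 has 64. RPL21 (137) and RPL23A (95) have the most named copies of all members. How reads that match a gene and its copies were assigned is not given in the sources used here, counts are not divided by coding length, and the part of these copies in the low counts was not tested.

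**Figure D4:**
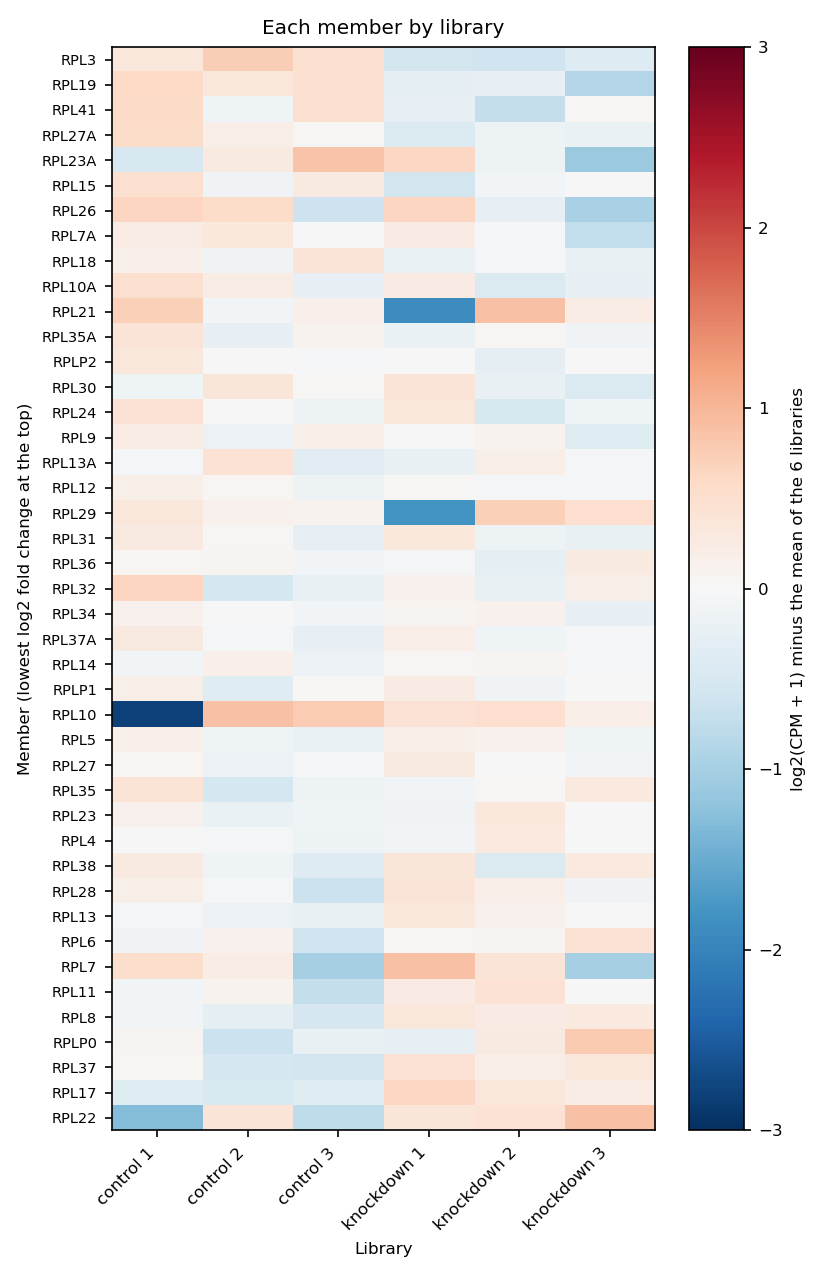
Log2(CPM + 1) of 43 of the 44 tested members in each library minus the member's mean over the 6 libraries, with members in rows from the lowest log2 fold change at the top and libraries in columns. Values run from -2.79 to 0.88. RPL10 in control library 1 and RPL21 and RPL29 in knockdown library 1 are the darkest blue cells.

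The 10 members with the largest counts held 65.7% of all member counts in control and 67.6% in knockdown, as counts not divided by length. The median coefficient of variation within a group was 18.9% in control and 15.5% in knockdown.

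Members with and without a nested snoRNA or a TOP start lay on both sides of 0. In RefSeq 20 of the 45 members hold at least 1 snoRNA gene within their span, 41 in all, with 4 each in RPL3, RPL4, RPL7A, RPL13A and RPL23A. Of the 19 hosts tested, 8 had log2 fold changes above 0 and 11 below, with a median of -0.062. Of the 25 tested members without a snoRNA, 12 lay above 0 and 13 below, with a median of -0.010. Among the 5 members with 4 nested snoRNAs, log2 fold changes were -1.06 (RPL3), -0.45 (RPL23A), -0.32 (RPL7A), -0.072 (RPL13A) and 0.15 (RPL4). Of 26 tested members with a TOP start at a listed base, 11 lay above 0 and 15 below, with a median of -0.032 and a range of -0.66 to 1.56. Of 10 tested members with a listed start and no TOP start there, 4 lay above 0 and 6 below, with a median of -0.090 and a range of -1.06 to 0.88. RPL3, RPL19 and RPL17 are in the latter group, as are RPL4 and RPL27 near 0. These are descriptions over members, with no test between the groups of members.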

How the data were processed

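The authors deposited 1 table of raw counts, whole numbers per Ensembl gene ID. Reads were handled with fastp and Bowtie 1.3.1 on hg38, per the submitters' processing notes. How reads were counted, with which annotation, lengths and strand, is not given in the sources used here. Per the labels' protocols, RNase I footprints were taken from monosomes, depleted of ribosomal RNA and selected on a gel; no molecular identifier is described, so copies made by PCR may be counted. The control columns carry the name of a vector and were matched to the control hairpin samples by assay, group and number. The 6 other columns are named for RNA and match none of the samples described here. They were not used, so translational efficiency was not computed.

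The test was that of edgeR 4.0.16 under R 4.3.3 (filterByExpr, 11653 features holding 99.8% of counts; TMM; glmQLFit and glmQLFTest, two-sided; adjusted threshold 0.05). The standard error is the size of the log2 fold change over the square root of F, and 95% intervals use its t quantile. The fit was also run on counts simulated from the mean CPM and dispersions of these data. That checks the code and cannot show that the calls are right. Alternatives used DESeq2 1.42.0, limma 3.58.1 with voom, other scalings and filters, a replicate block and each library left out; scaling to the 45 members was chosen after seeing the data. The members and lists were chosen with earlier results of these data known. A log2 fold change with its standard error or 95% interval went to members past the threshold, the 5 highest and 5 lowest by fold change and by mean CPM, the P stalk and the 5S particle; RPL10, RPL13 and other members were added after their values were seen. Coding lengths were not used here, so levels are not compared between members. Lists of assembly factors, other TOP mRNAs and cell type markers were not analysed, for want of names. The values of 1 tested member that this rule names are not reported here; it is part of all counts and medians.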

Additional observations from a re-analysis of the deposited data

How the results depend on the processing

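The number of members lower in the knockdown, 1 in the report, was 2 with DESeq2, limma voom, library size alone, no filter on low counts and at least 10 CPM in 3 libraries, RPL19 being the second each time. It was 0 with the replicate block and 0 to 1 with a library left out. A fit without 1 library has fewer samples. The number higher was 0 throughout, except 2 (RPL8 and RPL37) with DESeq2. The median log2 fold change was -0.022 in the report and -0.30 with library size alone, where the median of all tested features moved to -0.30 as well and 10 members lay above 0 and 34 below. With a library left out it ran from -0.10 to 0.049. The ratio of the members' share of counts, knockdown over control, was 0.847 over all counts. It was 1.08 with the 50 largest features out of both numerator and denominator. With snoRNA hosts out of the numerator alone, and all counts in the denominator, it was 0.831. Settings added after seeing the data gave 1.04 with 48 non-members of those 50 out of the denominator and 0.820 to 0.861 with a library left out. Directions that turned were all of members that did not pass. With library size alone 10 members turned. Of these, 4 were among the members named by rule or added to them, RPL35, RPL5, RPLP1 and RPL10, at -0.10, -0.17, -0.20 and -0.31, and RPL10 was at -0.051 scaled to the 45 members. With a library left out RPL7 ran from -0.42 to 1.08, RPL10 from -0.45 to 0.50, RPL12 from -0.15 to 0.017, RPL21 from -1.08 to 0.37, RPL23A from -1.15 to 0.016, RPL29 from -0.62 to 0.54, RPL35 from -0.062 to 0.42 and RPLP1 from -0.064 to 0.20. As a check of pairing, deviations from the group mean were correlated between control and knockdown libraries across the tested features. The correlations were -0.0017, -0.021 and 0.060 for libraries with the same number. Control libraries 1 and 2 correlated best with another number, and control library 3 with its own. Deviations from a mean of 3 libraries are tied to each other. This check therefore cannot decide whether libraries of the same number share a culture or preparation. With the replicate block the number of calls over all features went from 364 to 208. It was 799 with DESeq2, 735 without a filter and 602 with at least 10 CPM in 3 libraries. It was 250 with each library scaled to the 45 members, and 47 to 171 with a library left out. The causes were not tested. The counts of 7 members, under 100 in every library, limit their precision, and RPL39 had too few to be tested.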
